A study of Homo sapiens with 12 samples.

Results

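The genes described here encode the epidermal growth factor (EGF) receptor system of airway epithelium: the ligands HBEGF, AREG, EREG, TGFA and BTC, the receptors EGFR, ERBB2 and ERBB3, and the membrane proteases ADAM10 and ADAM17. The rule takes every probe annotated to these 10 symbols and no measured value enters it, but the symbols were picked with earlier results of these data known. Of the 10 genes, 9 had a probe in the probe table used here, out of 20045 genes named in it, and AREG was not analysed here. The 9 genes have 20 probes, of which 15 passed the filter on dim probes (detected at p under 0.05 on no fewer than 2 arrays of 12), and every one of the 9 genes kept at least 1 probe. The values of each gene come from its probe with the highest mean, and its further probes are given beside it for part of the comparisons.

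The arrays are Illumina bead arrays of total RNA from 2 human lung epithelial lines. BEAS-2B cells descend from healthy bronchial epithelium and were immortalised, and A549 cells descend from an adenocarcinoma of the lung. The groups are BEAS-2B after 1 h of poultry dust extract, BEAS-2B after 6 h of it, BEAS-2B in medium alone (control), and the same 3 conditions in A549, with 2 arrays each, numbered 1 and 2 in the sample titles. Cells of all 6 groups were without serum overnight beforehand. The titles give the extract as 0.25 without a unit and give the control arrays no time. Nothing in the labels says whether the numbers mark separate cultures, so the p-values measure the spread between these arrays, which may be technical.

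The EGF family ligands are made as precursors that span the membrane, and proteases of the ADAM family cut them to release the soluble factor. ADAM17 is known as the main protease for HBEGF, TGFA, AREG and EREG, and ADAM10 for BTC and EGF. The released ligand binds EGFR, which pairs with itself, with ERBB2 (which has no known ligand of its own) or with ERBB3 (a neuregulin receptor with a weak kinase), and turns on the RAS-MAPK relay. In airway epithelium the pathway is known for repair, mucus production and inflammatory gene expression. The arrays measure transcripts; protein, cleavage and receptor activity were not measured.

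HBEGF encodes the heparin-binding EGF-like ligand and TGFA encodes transforming growth factor alpha. The 250 bases upstream of their transcription starts are shown because these were the genes of the set that passed a test against control cells in any fit. The sequences are RefSeq's, build GRCh38.p14, for HBEGF at chr5:140346604-140346853 and for the outer of the TGFA starts at chr2:70553827-70554076, both on the minus strand and written 5′ to 3′. Capitals mark matches, on either strand, to any of 8 short motifs searched.
HBEGF: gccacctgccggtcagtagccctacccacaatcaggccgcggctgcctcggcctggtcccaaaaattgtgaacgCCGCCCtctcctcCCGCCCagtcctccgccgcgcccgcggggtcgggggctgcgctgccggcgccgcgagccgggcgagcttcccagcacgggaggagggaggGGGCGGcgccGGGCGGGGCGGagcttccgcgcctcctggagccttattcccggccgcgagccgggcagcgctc
TGFA: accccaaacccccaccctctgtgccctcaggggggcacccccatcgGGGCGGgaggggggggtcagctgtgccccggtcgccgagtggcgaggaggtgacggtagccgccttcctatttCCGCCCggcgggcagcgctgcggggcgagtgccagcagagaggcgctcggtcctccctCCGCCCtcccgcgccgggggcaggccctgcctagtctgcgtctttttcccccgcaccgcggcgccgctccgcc
Every capital in these windows is a GGGCGG match (the SP1 type) or its complement, with 5 in HBEGF, of which the last pair share a base, and 3 in TGFA. The window of the other RefSeq start of TGFA, with 64.0% G or C, holds 0 matches to any of the 8 motifs. The windows shown hold 76.4% G or C for HBEGF and 75.6% for TGFA, and 42.6% of all 35116 RefSeq windows of this length hold at least 1 GGGCGG match. Neither window holds TGANTCA (AP-1), TGACGTCA (cyclic AMP response), GCGGGGGCG (EGR, which can overlap the SP1 letters), CCGGAAGT (ETS), TATAAA, or the NF-kB or CArG motifs. Of all windows, 6.57% hold the AP-1 letters, 1.65% the cyclic AMP response letters, 4.72% the EGR letters, 3.42% the ETS letters, 1.73% the NF-kB motif, 10.7% TATAAA and 1.16% the CArG motif. RefSeq windows were matched for 9 of the 10 genes. ERBB3 was not matched.

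The lines were checked by markers first. All 6 epithelial markers (KRT7, KRT8, KRT18, KRT19, EPCAM, CDH1) were detected on all 6 arrays of either line. KRT5, a basal bronchial keratin, was detected on all 6 BEAS-2B arrays and on 0 A549 arrays, whereas the other basal markers measured did not divide the lines as fully: KRT14 was detected on 3 BEAS-2B and 0 A549 arrays, KRT15 on 2 and 1, ITGB4 on 6 and 6, and NGFR on 0 and 0. Of 8 alveolar type II markers, only LAMP3 was detected on all 6 BEAS-2B arrays and only ABCA3 on all 6 A549 arrays, and SFTPA1, SFTPC and NKX2-1 were detected on 0 arrays of either. Endothelial markers and PTPRC and CD3E (leukocytes) were detected on 0 arrays, while CD14 and CD68 were detected on all 12. Of 4 fibroblast markers, COL1A1 was detected on 6 BEAS-2B and 4 A549 arrays, COL3A1 on 1 and 2, DCN on 1 and 1, and PDGFRB on 0 and 0. Between 17730 and 19453 of 47320 probes were detected per array, with a median unnormalized signal between 79.5 and 94.98. In lysates of whole cultures, fewer cells that express a gene and less RNA of it per cell cannot be told apart.

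The ligand HBEGF was 2.88 higher on the log2 scale in BEAS-2B after 1 h of dust extract and 1.28 higher after 6 h, and 1.83 and 1.62 higher in A549. On the probe used for each gene, these were the largest differences of the 9 genes, narrowly so in BEAS-2B at 6 h. TGFA was 1.01 and 1.23 higher in BEAS-2B, and at 6 h its further probe rose slightly more than HBEGF. The receptors and proteases did not pass in any of these comparisons. In the fit without a replicate block, 0 of the 9 genes passed an adjusted p of 0.05 in limma in any of the 4 comparisons of dust extract with control, where few features of the array did: 0.125% in BEAS-2B at 1 h, 0.0648% in BEAS-2B at 6 h, 0.0897% in A549 at 1 h and 0.00499% in A549 at 6 h. At an unadjusted p under 0.05 in that fit, the count was 1 of 9 in BEAS-2B at 1 h (4.35% of all features), 2 in BEAS-2B at 6 h (5.94%), 2 in A549 at 1 h (2.47%) and 3 in A549 at 6 h (3.76%). Arrays with the same number within a line deviated from their group means together (r of 0.404 to 0.645 over features), so each comparison was also fitted with a replicate block, which takes out the mean level of each number in its line. With the block, 2 of 9 genes rose in BEAS-2B at 1 h (0.538% of all features passed in either direction and 0.503% were higher), and 2 in BEAS-2B at 6 h (0.568% and 0.444%). With it 1 gene rose in A549 at 1 h (0.349% and 0.329%) and 1 in A549 at 6 h (0.279% and 0.239%), and 0 fell in any of the 4. The genes that rose were HBEGF in all 4 comparisons and TGFA in the BEAS-2B comparisons.

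**Figure D1:**
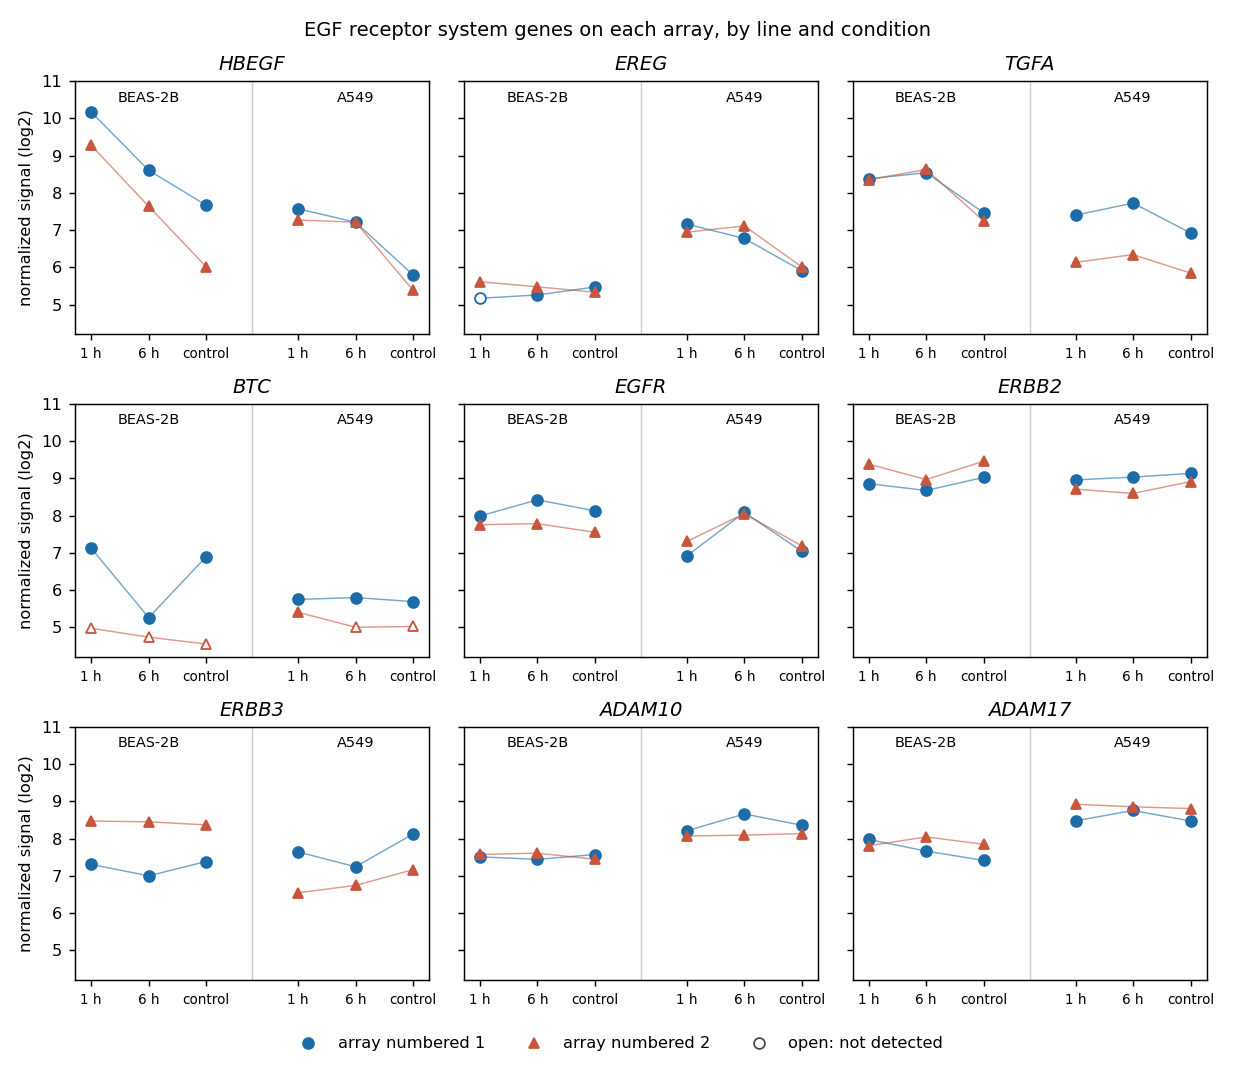
Normalized log2 signal of the 9 genes on each array, in panels by gene, with BEAS-2B left and A549 right and dust 1 h, dust 6 h and control along the axis. Circles are arrays numbered 1, triangles arrays numbered 2, thin lines join arrays with the same number, and open symbols were not detected; levels of different genes come from different probes and are not comparable. HBEGF is higher after dust extract than in control on every same-numbered pair, and BEAS-2B ADAM10 lies between 7.44 and 7.61 throughout.

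The ligand HBEGF had the widest response. All HBEGF values come from 1 probe (ILMN_2121408), which was detected on all 12 arrays with unnormalized signals between 104 and 877 intensity units. On the normalized log2 scale, HBEGF in BEAS-2B stood at 10.17 and 9.27 after 1 h of dust extract, at 8.60 and 7.64 after 6 h, and at 7.67 and 6.01 in control cells (arrays 1 and 2 in each case). Both 1 h arrays lay above both control arrays, whereas array 2 of the 6 h group lay just under array 1 of the control group, so the 6 h and control values overlap. Array 1 was the higher of the 2 in each BEAS-2B group, by 0.90 at 1 h, 0.97 at 6 h and 1.65 in control cells.

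The change of HBEGF in BEAS-2B at 1 h was 2.88 on the log2 scale (SE 0.50, n = 2 arrays a group), a 7.36-fold difference, with a limma adjusted p of 0.0872 without the block and 0.000481 with it (SE 0.21). Number by number the change was 2.50 and 3.26. It passed in 12 of 12 blocked limma fits that each left out 1 array, with values from 2.52 to 3.24 and adjusted p-values up to 0.0150. Without the block it passed from the deposited normalized matrix (2.32, adjusted p = 0.0401 in limma) and without control array 1 (3.71, adjusted p = 0.00938), and from the neqc values in 0 of the other 11 fits with 1 array left out.

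At 6 h the change of HBEGF in BEAS-2B was 1.28 (SE 0.50, 2.43-fold), or 0.94 and 1.62 number by number, and it passed only with the block (limma adjusted p = 0.0350, against 0.761 without). In 9 of 12 blocked fits with 1 array left out it no longer passed; over all 12 its values ran from 0.92 to 1.64 and its adjusted p-values from 0.0381 to 0.274. These 9 fits included all 6 that left out an A549 array, which left the change as it was, and those without 6 h array 1, 6 h array 2 or control array 2. Set directly against 1 h, HBEGF at 6 h fell by 1.60 on the log2 scale (SE 0.50, 3.03-fold), which passed with the block (limma adjusted p = 0.0142) and not without it (0.555). That fall was alike in both numbers, -1.56 and -1.63, and the blocked call was lost on leaving out any 1 of the 4 arrays it compares (highest adjusted p = 0.144). In this comparison of times, HBEGF was the 1 of 9 genes that passed with the block (0.673% of all features in either direction and 0.399% lower) and 0 of 9 passed without it (0.0598% of all features, with 1 of 9 at an unadjusted p under 0.05, beside 5.98% of all features).

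In A549, HBEGF stood at 7.57 and 7.27 after 1 h of dust extract, at 7.21 and 7.21 after 6 h, and at 5.80 and 5.38 in control cells. The 4 dust arrays lay close together, and all lay above both control arrays. Control array 2 lay close to the dimmest detected signal of that array (5.38 against 5.26), and control array 1 stood further above its own (5.80 against 5.18). The A549 changes of HBEGF, and the comparison of lines in them, rest on this dim reference. The change was 1.83 at 1 h (SE 0.50, 3.56-fold) and 1.62 at 6 h (SE 0.50, 3.08-fold). Both passed with the block only, with limma adjusted p-values of 0.00688 at 1 h (0.865 without the block) and 0.0202 at 6 h (1.00 without). Each lost its call in 4 of 12 blocked fits with 1 array left out, namely those without any of the 4 arrays it compares (adjusted p-values up to 0.204 at 1 h and 0.324 at 6 h), while its value stayed between 1.70 and 1.96 at 1 h and between 1.44 and 1.80 at 6 h. The A549 difference between 6 h and 1 h was -0.21 (95% interval -1.31 to 0.89), and 0 of the 9 genes passed in that comparison without the block (0.0349% of all features; 1 of 9 at an unadjusted p under 0.05, beside 3.59% of all features) or with it (0.234% of all features).

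The HBEGF change at 1 h was 1.05 larger in BEAS-2B than in A549 (95% interval -0.51 to 2.61), and at 6 h it was 0.34 smaller (a difference of -0.34, interval -1.90 to 1.22). Neither difference passed (adjusted p with the block of 0.681 at 1 h and 0.775 at 6 h), so the lines were not shown to differ in this response. The comparison of lines at either time gave 0 of 9 genes in limma without the block (0% of all features at 1 h and 0.00997% at 6 h; 1 of 9 at an unadjusted p under 0.05 at each time, beside 2.48% and 3.78% of all features) and 0 of 9 with it (0.0399% and 0.105% of all features at 1 h and 6 h).

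TGFA, a ligand that binds EGFR alone among the receptors, has 2 probes that passed the filter. In BEAS-2B its brighter probe (ILMN_2083946) stood at 8.37 and 8.35 after 1 h, at 8.54 and 8.63 after 6 h, and at 7.47 and 7.24 in control cells. Every dust array lay above both control arrays, and arrays 1 and 2 of a group lay closer to each other than to the control arrays. The change was 1.01 at 1 h (SE 0.50, 2.01-fold) and 1.23 at 6 h (SE 0.50, 2.34-fold), with limma adjusted p-values of 0.0321 and 0.0187 with the block and of 1.00 and 0.776 without it. The SE without the block is set by all 12 arrays, A549 included, and in A549 the arrays 1 and 2 of TGFA differed by 1.08 to 1.38.

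The further TGFA probe (ILMN_1805175) stood at 8.16 and 7.96 at 1 h, at 8.52 and 8.39 at 6 h and at 7.39 and 6.93 in control BEAS-2B cells, again with no overlap. Its change was 0.90 at 1 h, which did not pass with the block when every probe was tested (adjusted p = 0.113), and 1.30 at 6 h, which did (0.0242). In blocked fits with 1 array left out, the brighter probe passed in 2 of 12 at 1 h (adjusted p up to 0.331) and in 4 of 12 at 6 h (up to 0.201). The calls were lost without each of the 4 arrays compared, and also without A549 control or 1 h arrays, of which none enters the change itself; at 1 h they were lost without A549 6 h arrays too.

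In A549, TGFA stood at 7.40 and 6.13 at 1 h, at 7.72 and 6.34 at 6 h and at 6.92 and 5.84 in control cells. Within each number the dust arrays were the higher ones, but array 2 after dust extract lay under array 1 of the control group, so the groups overlap. The changes of 0.38 at 1 h and 0.65 at 6 h did not pass with the block (limma adjusted p = 0.984 and 0.243), nor did the further probe's 0.30 and 1.12 (adjusted p = 1.00 and 0.0553). The TGFA change was 0.63 larger in BEAS-2B than in A549 at 1 h and 0.58 larger at 6 h, and neither difference passed (intervals -0.93 to 2.18 and -0.98 to 2.14).

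EREG, which encodes epiregulin, a ligand of EGFR and ERBB4, has 1 probe (ILMN_1657248). In A549 it stood at 7.16 and 6.94 after 1 h of dust extract, at 6.77 and 7.11 after 6 h, and at 5.91 and 6.01 in control cells. Every A549 dust array lay above both control arrays. The differences were 1.09 at 1 h (SE 0.22, 2.13-fold) and 0.98 at 6 h (SE 0.22, 1.97-fold). Neither passed over all features: the limma adjusted p-values were 0.266 and 0.481 without the block and 0.0738 and 0.113 with it, beside unadjusted values of 0.000474 and 0.00103.

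In BEAS-2B, EREG lay close to the dimmest detected signal (5.22 to 5.31 on these arrays), at 5.17 and 5.61 after 1 h, 5.26 and 5.48 after 6 h and 5.47 and 5.33 in control cells. It was detected on 5 of these 6 arrays, all but 1 h array 1, and the groups overlap. The differences from control were -0.01 at 1 h (95% interval -0.50 to 0.48) and -0.04 at 6 h (-0.52 to 0.45). BEAS-2B minus A549 in the change was -1.10 at 1 h (interval -1.79 to -0.41) and -1.02 at 6 h (interval -1.71 to -0.33), and over all features neither passed, with adjusted p-values of 1.00 at either time without the block and of 0.548 and 0.320 with it. After dust extract the BEAS-2B and A549 arrays do not overlap for HBEGF and TGFA, which were higher in BEAS-2B, or for EREG, which was higher in A549, but the lines' changes were not shown to differ for any of these 3 ligands.

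BTC, which encodes betacellulin, a ligand of EGFR and ERBB4, was detected on 7 of 12 arrays. In BEAS-2B it was detected on the 3 arrays numbered 1, at 7.13 after 1 h, 5.26 after 6 h and 6.90 in control cells, and on 0 of the 3 arrays numbered 2, at 4.98, 4.74 and 4.55. The gap between numbers was 2.15 at 1 h, 0.52 at 6 h and 2.34 in control cells. In A549 the arrays numbered 1 stood between 5.69 and 5.80 and those numbered 2 between 5.01 and 5.41. No BTC difference passed in any dust comparison in limma, and the widest difference from control, -0.72 at 6 h in BEAS-2B, has a 95% interval of -2.39 to 0.94.

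**Figure D2:**
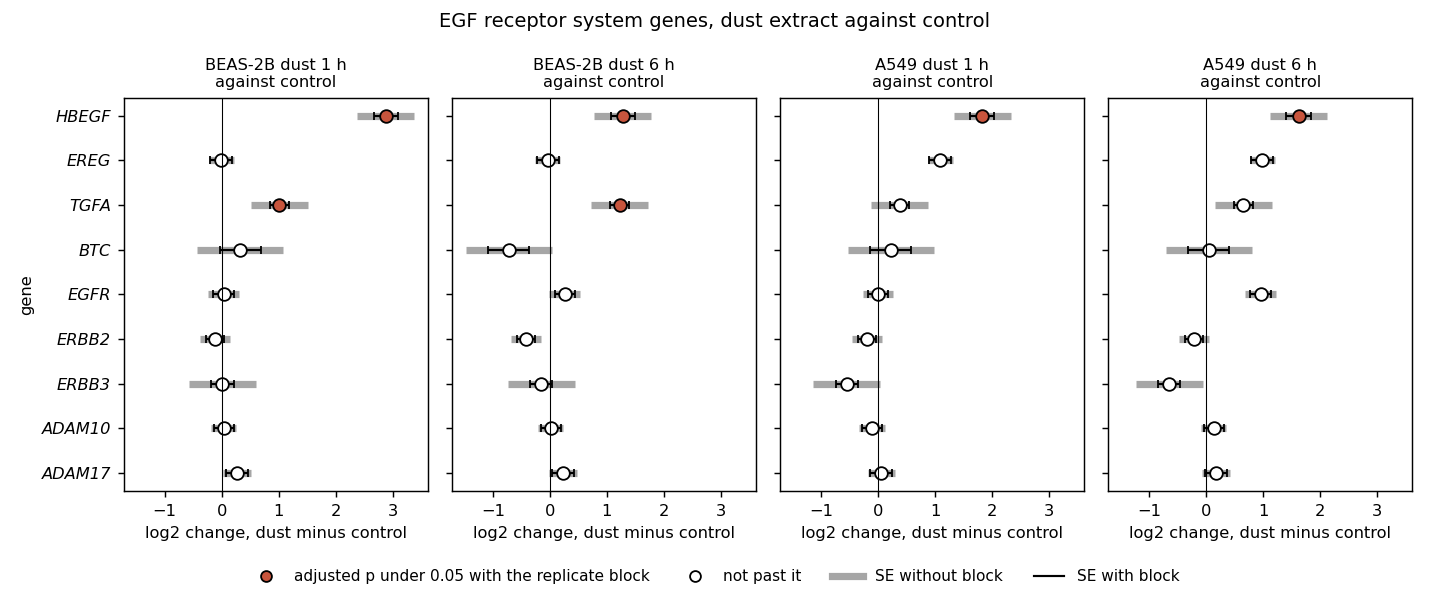
Log2 change of the 9 genes, dust extract minus control, at 1 h and 6 h in BEAS-2B and A549 (panels left to right). Wide grey bars are the SE without the replicate block, thin black bars the SE with it, and filled points have an adjusted p under 0.05 with the block. The filled points are HBEGF in all 4 panels and TGFA in the BEAS-2B panels, and ADAM10 and ADAM17 lie between -0.11 and 0.26 throughout.

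Among the receptors, EGFR showed its widest difference in A549 at 6 h. EGFR (probe ILMN_1798975) stood there at 6.92 and 7.31 after 1 h, at 8.09 and 8.06 after 6 h, and at 7.04 and 7.19 in control cells. Both 6 h arrays lay above all 4 others of the line, while the 1 h arrays lay on either side of the control arrays. The 6 h difference was 0.95 (SE 0.27, 1.94-fold), which did not pass (limma adjusted p = 0.862 without the block and 0.0848 with it, unadjusted 0.00497), and the 1 h difference was -0.00 (95% interval -0.60 to 0.60). The second EGFR probe that passed the filter (ILMN_1696521) gave 0.61 at 6 h (adjusted p with the block of 0.354), from 7.15 and 6.97 against 6.62 and 6.29 in control cells. The other EGFR probes, 2 in number, were detected on 1 and 0 of 12 arrays.

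In BEAS-2B, EGFR stood at 7.99 and 7.76 after 1 h, at 8.42 and 7.79 after 6 h, and at 8.13 and 7.55 in control cells, and the groups overlap. The differences were 0.03 at 1 h and 0.26 at 6 h (intervals -0.57 to 0.63 and -0.33 to 0.86), and the second probe gave 0.03 and -0.06. The EGFR change at 6 h was 0.69 smaller in BEAS-2B than in A549 (a difference of -0.69, interval -1.54 to 0.16), which did not pass (adjusted p with the block of 0.432).

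ERBB2, the partner without a known ligand, ranged from 8.60 to 9.46 over the 12 arrays, on the 1 of its 3 probes that passed the filter. Its differences from control were all below 0, from -0.42 in BEAS-2B at 6 h to -0.12 in BEAS-2B at 1 h, and none passed in limma with or without the block. The difference of -0.42 has a 95% interval of -0.998 to 0.15, and comes from 8.68 and 8.97 after 6 h against 9.03 and 9.46 in control cells, where each dust array lay below both control arrays.

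ERBB3, the neuregulin receptor, differed between array numbers in every group. In BEAS-2B it stood at 7.31 and 8.47 after 1 h, at 7.001 and 8.45 after 6 h, and at 7.39 and 8.37 in control cells. In A549 it stood at 7.64 and 6.55 after 1 h, at 7.24 and 6.74 after 6 h, and at 8.12 and 7.17 in control cells. Array 2 was the higher in each BEAS-2B group (by 0.98 to 1.45) and array 1 the higher in each A549 group (by 0.50 to 1.10), and the conditions overlap in either line. The A549 differences of -0.55 at 1 h and -0.65 at 6 h did not pass with the block (limma adjusted p = 0.794 and 0.351), and the further probe (ILMN_1737993), detected on 9 of 12 arrays, gave -0.05 and -0.04. In BEAS-2B the differences were 0.01 and -0.15. There the further probe lay the other way at 6 h, at 5.42 and 6.30 against 5.26 (not detected) and 5.69 in control cells.

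**Figure D3:**
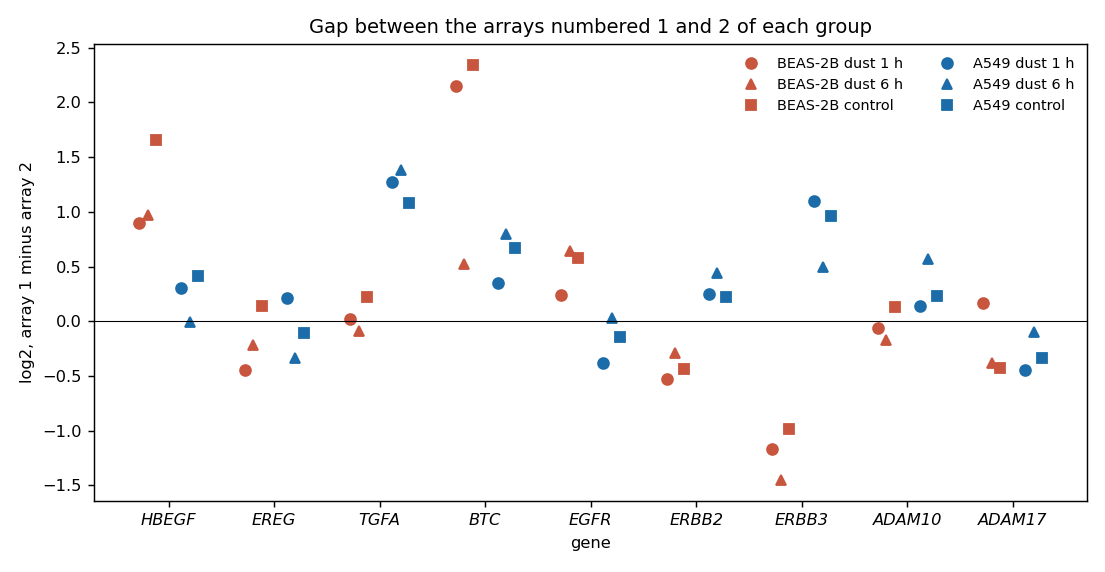
Log2 level of array 1 minus array 2 for the 9 genes, with red symbols for the BEAS-2B groups and blue for the A549 groups (circles dust 1 h, triangles dust 6 h, squares control). Gaps of a gene within a line lie on 1 side of 0 for ERBB3 and BTC in either line, for HBEGF, EGFR and ERBB2 in BEAS-2B and for TGFA in A549, among others, and reach 2.34 for BTC in BEAS-2B control cells.

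The proteases ADAM10 and ADAM17 showed little difference after dust extract. ADAM10 (probe ILMN_1718946) stood in BEAS-2B at 7.51 and 7.57 after 1 h, 7.44 and 7.61 after 6 h, and 7.57 and 7.45 in control cells. In A549 it stood at 8.21 and 8.07 after 1 h, 8.66 and 8.09 after 6 h, and 8.36 and 8.13 in control cells. The conditions overlap in either line. The differences from control were 0.03 and 0.02 in BEAS-2B (at 1 h and 6 h; 95% intervals -0.45 to 0.52 and -0.47 to 0.51) and -0.11 and 0.13 in A549 (-0.59 to 0.38 and -0.36 to 0.62). On the further ADAM10 probe (ILMN_2148360), detected on 9 arrays, the conditions overlap in each line too.

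ADAM17 (probe ILMN_2121068) stood in BEAS-2B at 7.98 and 7.81 after 1 h, 7.67 and 8.05 after 6 h, and 7.42 and 7.85 in control cells. In A549 it stood at 8.48 and 8.92 after 1 h, 8.76 and 8.85 after 6 h, and 8.47 and 8.81 in control cells. Here too the conditions overlap. The differences were 0.26 and 0.22 in BEAS-2B and 0.06 and 0.16 in A549 at 1 h and 6 h, none past the threshold in limma with or without the block, and the further ADAM17 probes gave differences between -0.17 and 0.35. On the further probe ILMN_1765779, every BEAS-2B dust array lay above both control arrays. Its BEAS-2B values were 6.11 and 6.19 after 1 h, 5.90 and 6.31 after 6 h, and 5.75 and 5.85 in control cells. On the other further probe (ILMN_1908488) the BEAS-2B conditions overlap.

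The untreated lines were compared for the levels from which each started. Of the 9 genes, 2 were lower in BEAS-2B than in A549 and 0 were higher, where 22.3% of all features passed in either direction and 11.5% were lower. ADAM17 was lower by 1.01 in BEAS-2B, a difference of -1.01 (SE 0.25, 2.01-fold), at 7.42 and 7.85 in BEAS-2B against 8.47 and 8.81 in A549 (limma adjusted p = 0.0130). ADAM10 differed by -0.74 (SE 0.22, 1.67-fold), at 7.57 and 7.45 in BEAS-2B against 8.36 and 8.13 in A549 (adjusted p = 0.0350). On these probes the arrays of the lines do not overlap for either gene, also in the dust groups. On the further probes the lines overlap at 6 h, and for ADAM10 at 1 h too, with BEAS-2B array 2 above an A549 array. The 6 h values were 5.66 against 5.36 for ADAM10 (A549 array 2), and 6.31 against 6.17 and 6.79 against 6.60 for ADAM17 (A549 array 1). At 1 h the further ADAM10 probe stood at 5.42 on BEAS-2B array 2 against 5.25 on A549 array 2.

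The further probes lay on the same side without passing when every probe was tested: -0.60 for ADAM10 (limma adjusted p = 0.375) and -0.57 and -0.45 for ADAM17 (0.150 and 0.267). On leaving out 1 array, ADAM17 passed in 10 of 12 fits, with values from -1.22 to -0.79, and lost its call without A549 control array 2 (adjusted p = 0.101) or BEAS-2B control array 1 (0.104). ADAM10 passed in 6 of 12, with values from -0.85 to -0.62, and lost its call without any of the 4 control arrays (adjusted p up to 0.185) or without either A549 1 h array (0.0507). No block within a line can enter this comparison, since it compares lines.

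The other genes did not pass between the untreated lines. The ligand differences, BEAS-2B minus A549, were 1.25 for HBEGF (SE 0.50, limma adjusted p = 0.103), 0.97 for TGFA (0.205), -0.56 for EREG (0.0983) and 0.37 for BTC (0.789). The receptor differences were 0.73 for EGFR (0.0820), 0.22 for ERBB2 (0.616) and 0.23 for ERBB3 (0.831). Without BEAS-2B control array 2, HBEGF passed with 2.08 (adjusted p = 0.0103) and EGFR with 1.01 (0.0468). In the order of group means, HBEGF was highest in BEAS-2B at 1 h (9.72 ± 0.63, SD, n = 2), then BEAS-2B at 6 h (8.12 ± 0.68), A549 at 1 h (7.42 ± 0.21), A549 at 6 h (7.21 ± 0.00), BEAS-2B control (6.84 ± 1.17) and A549 control (5.59 ± 0.29). The A549 dust groups lie within the spread of the BEAS-2B control arrays, and the 2 A549 dust means do not differ beyond the spread of their arrays.

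**Figure D4:**
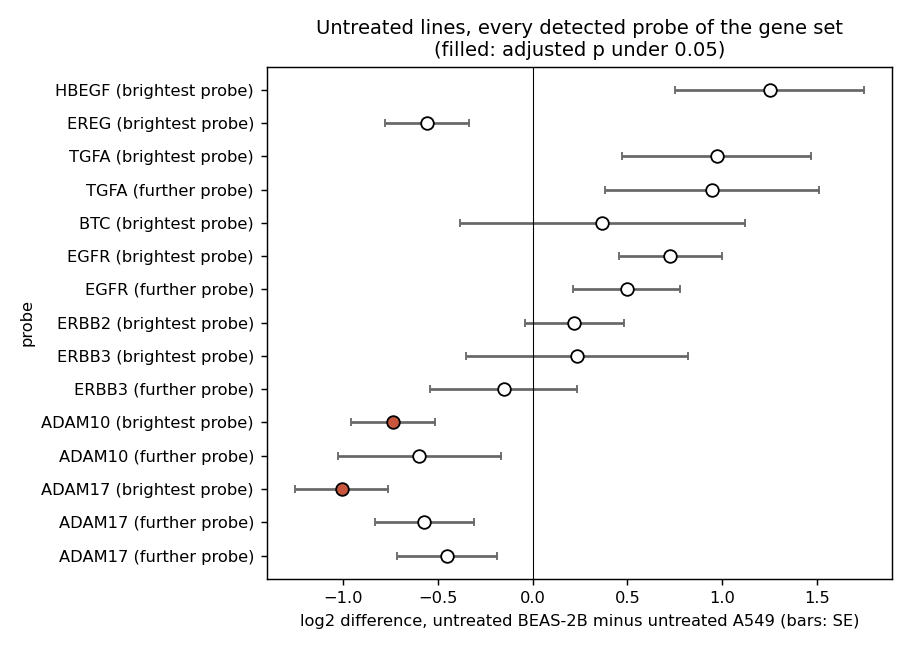
Log2 difference of every probe that passed the filter, untreated BEAS-2B minus untreated A549, with bars for the SE. All points come from the fit in which every probe was tested on its own. Filled points, ADAM10 at -0.74 and ADAM17 at -1.01, have an adjusted p under 0.05, and all 5 ADAM probes lie below 0.

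The rest of the pathway was read from 5 lists chosen by role with earlier results known, and their counts are descriptions, to be read beside the share of all features that passed. Of 20 genes for feedback on the receptor pathway, 19 were measured. In BEAS-2B at 1 h, 3 of 19 rose without the block (0.125% of all features passed): DUSP5 by 3.28 (limma adjusted p = 0.00116), ERRFI1 by 2.62 (0.0275) and DUSP6 by 1.53 (0.0326). ERRFI1 encodes a cytoplasmic inhibitor that binds the EGFR kinase, and DUSP5 and DUSP6 encode phosphatases of the ERK kinases. DUSP5 stood at 11.06 and 11.77 after 1 h, 9.31 and 9.09 after 6 h and 8.31 and 7.95 in control BEAS-2B cells. With the block 5 of 19 rose (0.538% of all features passed), with SPRY4 (2.12, adjusted p = 0.00110) and DUSP4 (1.43, 0.00529) added, and 0 fell. DUSP4 was detected on 1 of 2 control BEAS-2B arrays. The list's median change was 0.28 against -0.03 over all features.

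At 6 h in BEAS-2B, 0 of the 19 feedback genes passed without the block in limma (7 at an unadjusted p under 0.05, beside 5.94% of all features), and DUSP6 (1.42, adjusted p = 0.00787) and SPRY4 (1.39, 0.0189) rose with it (0.568% of all features passed). In A549 at 1 h, DUSP5 rose by 2.43 (adjusted p = 0.00885), the 1 gene of the list with or without the block (0.349% and 0.0897% of all features), and at 6 h it was 1.64 above control and passed with the block only (0.0410, against 0.161 without; 0.279% of all features passed with it). Like HBEGF, DUSP5 in BEAS-2B was lower at 6 h than at 1 h, by 2.21, a change of -2.21 that passed without the block too (adjusted p = 0.0181).

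Of 20 target genes of the receptor pathway, 19 were measured. In BEAS-2B at 1 h, FOSB rose by 5.78 (limma adjusted p = 0.000124) without the block (0.125% of all features passed), and 9 of 19 rose with it (0.538%): FOSB, FOS (2.12), PLAUR (1.93), FOSL1 (1.93), EGR1 (1.80), MYC (1.72), IER3 (1.49), JUN (1.45) and PHLDA1 (1.18), with adjusted p-values from 0.000268 to 0.0499. FOSB and FOS were each detected on 1 of 2 control BEAS-2B arrays, so their changes start from a dim reference. The median of the list was 0.93, against -0.03 over all features. In A549 at 1 h, FOSB (at least 62.5-fold higher, since neither control array detected it, adjusted p = 4.35e-05) and EGR1 (4.17, adjusted p = 0.0281) rose without the block (0.0897% of all features passed) and 6 of 19 genes with it (0.349%), and the list's median was 0.82, against -0.01. EGR1 averaged 5.61 on the A549 control arrays, whose dimmest detected signals were 5.18 and 5.26. FOSB, EGR1 and FOSL1 encode transcription factors of the early response and PLAUR the urokinase receptor. These genes answer many signals beside EGFR. At 6 h the count with the block was 2 in BEAS-2B (FOSL1, 1.24, and ETV5, 1.08; 0.568% of all features passed) and 1 in A549 (PHLDA1, 1.44; 0.279%). Without the block the limma count at 6 h was 0 in either line, with 4 in BEAS-2B and 2 in A549 at an unadjusted p under 0.05 (5.94% and 3.76% of all features).

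Between the untreated lines, where 22.3% of all features passed, 1 feedback gene was higher and 5 lower in BEAS-2B, of 19, and 3 target genes were higher and 3 lower, of 19.

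Among 22 other sheddases and regulators, 19 were measured. ADAM8, a membrane protease known from leukocytes, rose by 2.41 in BEAS-2B at 6 h (limma adjusted p = 0.0294 without the block and 0.000797 with it) and by 1.65 at 1 h with the block only (0.00417, against 0.153). It was the 1 gene of 19 that passed at 6 h without the block (0.0648% of all features) and at 1 h with it (0.538%). ADAM8 stood at 7.23 and 6.41 after 1 h, at 7.80 and 7.37 after 6 h and at 5.57 and 4.78 in control BEAS-2B cells, of which the last was not detected, and it was detected on 0 of 6 A549 arrays. With the block ADAM19 rose by 1.23 at 6 h in BEAS-2B (0.0372, against 0.944 without), which made 2 of 19 (0.568% of all features). In A549, 0 of the 19 passed at either time, without the block (0.0897% of all features at 1 h and 0.00499% at 6 h) or with it (0.349% and 0.279%). At an unadjusted p under 0.05 without the block, the count was 0 at 1 h and 1 at 6 h (2.47% and 3.76% of all features). Of 13 measured adaptors and relay kinases (of 19), 0 passed in any of the 4 dust comparisons with or without the block. Over all features, between 0.00499% and 0.568% passed there. At an unadjusted p under 0.05 without the block the count was 0 too, beside 2.47% to 5.94% of all features. Shares this small leave little room for a call among 13 genes, so the count of 0 does not set them apart. Between the untreated lines 3 of 13 were higher and 1 lower in BEAS-2B, where 22.3% of all features passed.

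Between the untreated lines, the other ligands measured, NRG1 and NRG4 (of 7 genes in that list), were both lower in BEAS-2B. NRG1, a ligand of ERBB3 and ERBB4, stood at 5.71 and 5.03 in BEAS-2B, the second not detected, against 9.20 and 9.94 in A549, a difference of -4.20 (SE 0.35, limma adjusted p = 1.43e-05). NRG4, a ligand of ERBB4, was not detected in control BEAS-2B cells and was at least 1.94-fold lower there (adjusted p = 0.0152). In the list of other sheddases, 3 of 19 were higher and 5 lower in BEAS-2B, where 22.3% of all features passed in either direction and 11.5% were lower. The matrix protease MMP7 was not detected in control BEAS-2B cells and was at least 42.7-fold lower there by group means (adjusted p = 8.99e-07). MMP9 was not detected in control A549 cells and stood at 10.44 and 7.10 in BEAS-2B, so its difference of 4.25 (SE 1.29, adjusted p = 0.0368) was 5.87 for number 1 and 2.62 for number 2; the bound of 11.7-fold holds for the group means, not for number 2 alone. RHBDF1, which encodes iRhom1, a partner that brings ADAM17 to maturity, differed by 0.85 (adjusted p = 0.0156), and ADAM10's tetraspanin partners TSPAN14 (-1.78, 0.000165), TSPAN15 (-1.08, 0.00825) and TSPAN33 (-1.36, 0.0188) were lower in BEAS-2B. TSPAN15 and TSPAN33 were each detected on 1 of 2 control BEAS-2B arrays. The other proteases of the list that passed were ADAM9, lower in BEAS-2B (-1.36, 0.00194), and ADAM15, higher there (0.95, 0.0381).

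HBEGF was also set against 806 named genes that varied (a standard deviation of at least 0.5 after each line's mean was subtracted), as a description over the 12 arrays, which share 1 chip and the same array numbers. The closest by Pearson correlation were DUSP4 (r = 0.975), PLAUR (0.959), IER3 (0.933), EPHA2 (0.921) and SPRY4 (0.918). In BEAS-2B at 1 h DUSP4 was 1.43 and PLAUR 1.93 above control, and in A549 at 1 h they were 0.65 and 1.43 above it, beside 2.88 and 1.83 for HBEGF. For TGFA the closest were VGF (r = 0.874), C1QTNF1 (0.854), PI3 (0.845), IGFL1 (0.832) and CDC42EP2 (0.818). In BEAS-2B at 1 h and 6 h these differed from control by 0.18 and 0.49 (VGF), 0.07 and 0.67 (C1QTNF1), 0.48 and 1.45 (PI3), 1.65 and 1.97 (IGFL1) and 0.73 and 0.53 (CDC42EP2), beside 1.01 and 1.23 for TGFA.

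**Figure D5:**
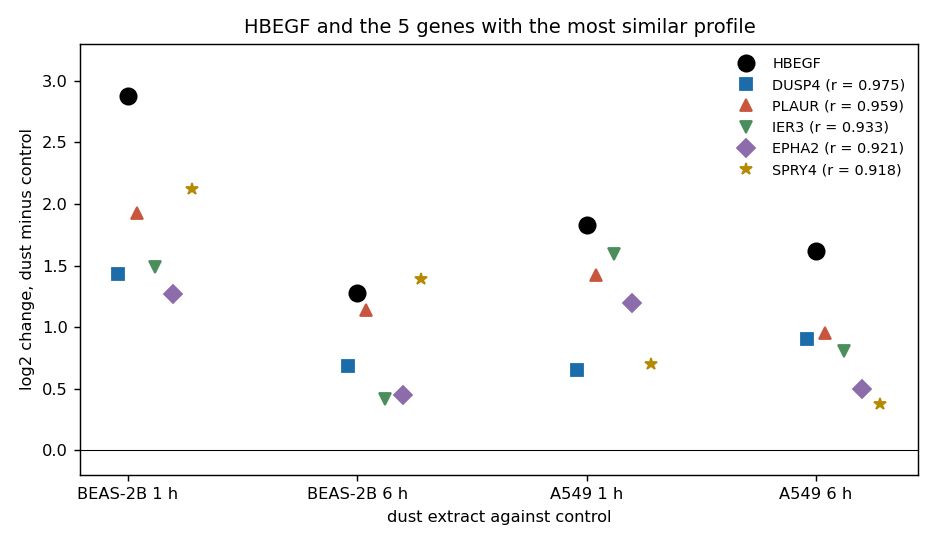
Log2 change, dust extract minus control, of HBEGF (black circles) and of the 5 genes with the closest profile over the 12 arrays (coloured symbols, r in the key), in the 4 comparisons along the axis. HBEGF is the highest symbol in each comparison except BEAS-2B at 6 h, where SPRY4 at 1.39 lies above its 1.28.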

How the data were processed

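The authors deposited unnormalized probe intensity values and a detection p-value for each array, exported with GenomeStudio 2011.1 per the submitters' processing notes, and a normalized intensity matrix whose method is not given in the sources used here. Another 24 columns were not used. Intensities were background-corrected, quantile-normalized and put on the log2 scale with neqc in limma 3.58.1 (R 4.3.3; offset 16); the deposited detection p-value gave the 24467 probes kept. The brightest probe of each named gene was used, which left 20060 features, 13035 of them named.

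One limma fit of 6 group means gave 9 comparisons, with p-values adjusted by Benjamini-Hochberg over all features in each (threshold 0.05; 6 residual and 4.71 prior degrees of freedom; intervals are 95%). A further fit held the array number as a block within each line (4 and 5.67). The deviations of same-numbered arrays from their group means correlated at 0.404 to 0.645 within a line and at -0.05 to 0.05 between lines. The labels do not say what the numbers mark. The fit without the block was tested on simulated data that held no shared level of the array numbers. The blocked fit was checked there only for giving the same changes, so its calls were not tested by simulation. Only 2 arrays a group limit the precision. Genes named outside the set are those of the lists that passed and the 5 most correlated with HBEGF and TGFA. The genes and lists were chosen with earlier results of these data known. Alternatives are given in the closing section. Motifs were counted with Python 3.11.15.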

Additional observations from a re-analysis of the deposited data

How the results depend on the processing

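With the replicate block within each line, the count of the 9 genes past the threshold was 2 in BEAS-2B at 1 h, 2 in BEAS-2B at 6 h, 1 in A549 at 1 h, 1 in A549 at 6 h and 1 in BEAS-2B at 6 h against 1 h, where it was 0 without the block; the block changed no other count. No paired analysis was possible because of the design for the untreated lines, which compares lines while the block lies within them. The deposited normalized matrix gave 1 gene in BEAS-2B at 1 h, and lowered the HBEGF changes in A549 to 1.10 and 0.94; a larger offset, no filter, a stricter filter, every probe on its own and each line alone kept all counts they could give. Leaving out 1 array gave 0 to 1 genes in BEAS-2B at 1 h, 0 to 3 between the untreated lines and 0 elsewhere. Further alternatives were chosen after seeing the data: leaving out 1 array with the block kept, and leaving out all arrays of a line with 1 number. The second gave, between the untreated lines, 1 gene without A549 number 1, 0 without A549 number 2, 0 without BEAS-2B number 1 and 4 without BEAS-2B number 2, and in BEAS-2B at 1 h 1 gene without BEAS-2B number 1. EGFR in A549 at 1 h turned to 0.00169 with the deposited matrix and 0.00101 with an offset of 50.

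These differences changed sign on leaving out 1 array, with the lowest and highest values given, and the cause was not tested. In A549 at 1 h they were TGFA (-0.25 to 1.02), BTC (-0.11 to 0.55), EGFR (-0.19 to 0.19), ADAM10 (-0.22 to 0.00831) and ADAM17 (-0.16 to 0.28), and at 6 h TGFA (-0.0408 to 1.34), BTC (-0.35 to 0.44), ERBB2 (-0.43 to 0.0115), ADAM10 (-0.15 to 0.41) and ADAM17 (-0.00232 to 0.33). In BEAS-2B at 1 h they were EREG (-0.23 to 0.21), BTC (-0.85 to 1.498), EGFR (-0.26 to 0.32), ERBB2 (-0.38 to 0.14), ERBB3 (-0.57 to 0.60) and ADAM10 (-0.0298 to 0.0981), and at 6 h EREG (-0.14 to 0.0745), BTC (-1.90 to 0.45), EGFR (-0.0549 to 0.58), ERBB3 (-0.88 to 0.57) and ADAM10 (-0.0672 to 0.10). For 6 h against 1 h and for the difference of the lines' changes, signs were followed for HBEGF, EREG, TGFA and EGFR only. At 6 h against 1 h the differences that changed sign were EREG (-0.28 to 0.0596) and TGFA (-0.43 to 0.96) in A549, and EREG (-0.25 to 0.20) and EGFR (-0.0869 to 0.55) in BEAS-2B. For the difference of the lines' changes they were TGFA (-0.00887 to 1.26) and EGFR (-0.26 to 0.32) at 1 h, and HBEGF (-1.17 to 0.49) and TGFA (-0.11 to 1.27) at 6 h. Between the untreated lines they were BTC (-0.81 to 1.54) and ERBB3 (-0.26 to 0.72). Signal near background limits BTC, EREG in BEAS-2B, and HBEGF on A549 control array 2.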
